A study of Mus musculus with 21 samples.

Results

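Potassium channel genes were followed in 2 brain tissues, choroid plexus and hypothalamus, from C57BL/6J mice labelled wild type. They were taken as all gene symbols beginning with Kcn, 98 in each of the 2 deposited tables, less 5 symbols that the rule leaves out. Those 5 are not analysed here, so every share and class below is one of the remaining genes and not of all potassium channels. The remaining 93 genes, of 25239 listed in each table, held 39 pore-forming subunits of voltage-gated channels and their modifiers, 14 of two-pore channels, 13 of inward rectifiers, 8 of calcium- or sodium-activated channels, 16 accessory genes and 3 noncoding transcripts that lie opposite a channel gene. RNA sequencing covered 6 libraries with Ins2 overexpression in the choroid plexus and 5 control libraries for choroid plexus, and 5 Ins2 and 5 control libraries for hypothalamus. Ins2 is a mouse insulin gene, and the controls are listed as receiving no treatment. Neither the means of Ins2 overexpression nor the promoter is given in the labels. Column names of the hypothalamus controls start with GFP, which leaves unsettled whether a GFP vector was given to them. Since no label ties a replicate to its own animal, the p-values cover only the spread among these libraries, which may be technical.

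Potassium channels let potassium leave or enter the cell along its gradient and set the resting potential, the shape of the action potential and the recycling of potassium. Pore-forming subunits share a short signature, the selectivity filter, that lines the narrow part of the pore. In voltage-gated, inward rectifier and calcium- or sodium-activated families each subunit carries 1 copy and subunits assemble in groups, while subunits of two-pore channels carry 2. The choroid plexus makes the cerebrospinal fluid, and potassium channels in the membranes of its epithelial cells are part of that secretion. In hypothalamic neurons, potassium channels set firing rate and carry inhibitory transmitter signals, and in astrocytes they take up potassium released by neurons.

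The coding DNA around the selectivity filter is shown for the channels on which the results turn, namely the 3 most abundant of choroid plexus (Kcnk1, Kcnh2 and Kcnh1) and 2 of the Kv3 family that were abundant in hypothalamus (Kcnc4 and Kcnc1). Each run has 51 bases, read 5′ to 3′ on the coding strand of GRCm38 with GENCODE transcripts, and the 15 bases in capitals encode the 5 residues of the filter.
Kcnk1 filter 1, chromosome 8, 125995790 to 126025037 with an intron between, plus strand: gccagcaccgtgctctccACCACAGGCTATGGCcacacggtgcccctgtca
Kcnk1 filter 2, chr8:126025311-126025361, plus strand: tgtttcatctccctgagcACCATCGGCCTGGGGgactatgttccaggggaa
Kcnh2, chr5:24325537-24325587, minus strand: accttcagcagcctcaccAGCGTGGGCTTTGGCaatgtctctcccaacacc
Kcnh1, chr1:192337736-192337786, plus strand: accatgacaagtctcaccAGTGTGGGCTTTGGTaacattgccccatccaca
Kcnc4, chr3:107447781-107447831, minus strand: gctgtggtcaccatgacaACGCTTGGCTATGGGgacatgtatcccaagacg
Kcnc1, chr7:46427955-46428005, plus strand: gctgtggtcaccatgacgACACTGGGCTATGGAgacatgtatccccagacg
The fourth capital codon was TAT, which encodes tyrosine, in filter 1 of Kcnk1 and in both Kv3 genes. It was TTT, which encodes phenylalanine, in Kcnh2 and Kcnh1, and CTG, which encodes leucine, in filter 2 of Kcnk1. The second capital codon of Kcnk1 filter 1 was ACA, which encodes threonine. A search of the longest coding sequence of each gene for threonine or serine, then valine, isoleucine, leucine or threonine, then glycine, then tyrosine, phenylalanine or leucine, then glycine found 2 matches in each of the 14 two-pore genes. It found 1 match in each of the 39 voltage-gated, 13 inward rectifier and 8 calcium- or sodium-activated genes, and 0 in the 16 accessory genes. Of all 21760 coding genes, 347 (1.59%) held a match. Threonine was admitted at the second place after 2 two-pore genes had shown only 1 match, so the count of 2 in every two-pore gene rests on that choice, and a match is a description of the letters only.

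The libraries held 25950069 to 36289667 reads in genes in choroid plexus and 27368464 to 62062133 in hypothalamus. The Ins2 transcript averaged 826 ± 162 scaled reads in the 6 Ins2 choroid plexus libraries and 430 ± 50.7 in the 5 controls (SD), with every Ins2 library above every control (limma, log2 fold change 0.92, adjusted p = 0.00594). In hypothalamus it was at 0 in 4 of 5 Ins2 libraries, at 5.75 in the remaining one, and at 0 in all 5 controls. Markers of each tissue fitted its label, though the tables were scaled separately. The 8 epithelial markers of choroid plexus summed to at least 4683537 scaled reads in every choroid plexus library, against at most 9992 in hypothalamus, and the 8 hypothalamus markers to at least 36718 in every hypothalamus library, against at most 670 in choroid plexus. Choroid plexus control replicate 2 stood apart: its oligodendrocyte markers summed to 53238 scaled reads, against 2342 to 3048 in the other 4 controls, and its astrocyte markers to 10792, against 3379 to 5271. The same library had 670 scaled reads of the 8 hypothalamus markers, against 29.9 to 48.9 in the other 4 controls.

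In choroid plexus, potassium channel transcripts were concentrated in 3 genes. Levels are given as RPKM, read counts scaled to exon length and to the reads in genes of the library, so that genes of different length can be compared. Kcnk1 encodes TWIK1, a two-pore channel, and ran from 142 to 162 in the 6 Ins2 libraries, with a median of 156, and was at 153, 160, 158, 162 and 156 in the 5 controls. Kcnh2 encodes the ERG1 channel that ends the cardiac action potential, and it ran from 57.4 to 68.0 in Ins2 libraries, with a median of 63.5, and was at 61.6, 63.6, 67.6, 69.2 and 62.8 in controls. Kcnh1 encodes the related EAG1 channel and ran from 27.1 to 35.6 in Ins2 libraries, with a median of 33.0, and was at 29.9, 31.9, 31.8, 29.5 and 42.7 in controls. The order of the 3 genes held in every one of the 11 choroid plexus libraries, and their ranges did not overlap.

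These 3 genes held 54.8%, 22.6% and 11.5% of the summed level of all 93 genes in control choroid plexus. Far below them came, among others, Kcnab2 (3.44), a beta subunit of Kv1 channels, Kcnd3 (3.26), a Kv4 channel of the A-type current, Kcnt1 (2.07), a sodium-activated channel, Kcnn1 (1.74), a small conductance calcium-activated channel, Kcnab3 (1.39), another beta subunit, and Kcnk4 (1.36), a mechanically gated two-pore channel, all as control means. Kcnd3 and Kcnab2 overlapped in their ranges over control libraries (2.47 to 4.04 and 2.82 to 4.23), so their order is within the spread, as is that of Kcnab3 and Kcnk4 (0.934 to 1.94 and 1.03 to 1.75).

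Hypothalamus had a broad repertoire. Its most abundant gene, Kcnj10, encodes Kir4.1, the inward rectifier by which astrocytes clear potassium, and averaged 74.4 ± 0.914 in Ins2 and 67.1 ± 6.92 in control libraries (SD, n = 5 each). It held 10.6% of the summed level, and 12 genes were needed to reach 50% of it and 38 to reach 90%. Others of those leading genes were Kcnab2 (39.9 in controls), the Kv3 genes Kcnc4 (27.4) and Kcnc1 (23.6), Kcnk1 (24.1), Kcnh2 (23.1), the Kv4-associated KChIP genes Kcnip4 (22.1) and Kcnip3 (19.4), the Kv1 gene Kcna6 (21.2), Kcnt1 (20.2) and Kcnj9 (19.1), a G-protein-gated inward rectifier. From Kcnc4 at 27.4 to Kcnj9 at 19.1, neighbouring ranges overlapped, so no order is claimed among them. Reads of Kcna6 are uncertain where another gene lies on the opposite strand, which takes 39.6% of its exon bases, since the sources used here do not say whether counting used strand. Kcnk1 shared 8.01% of its exon bases in this way and Kcnh2 shared 0.

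**Figure D1:**
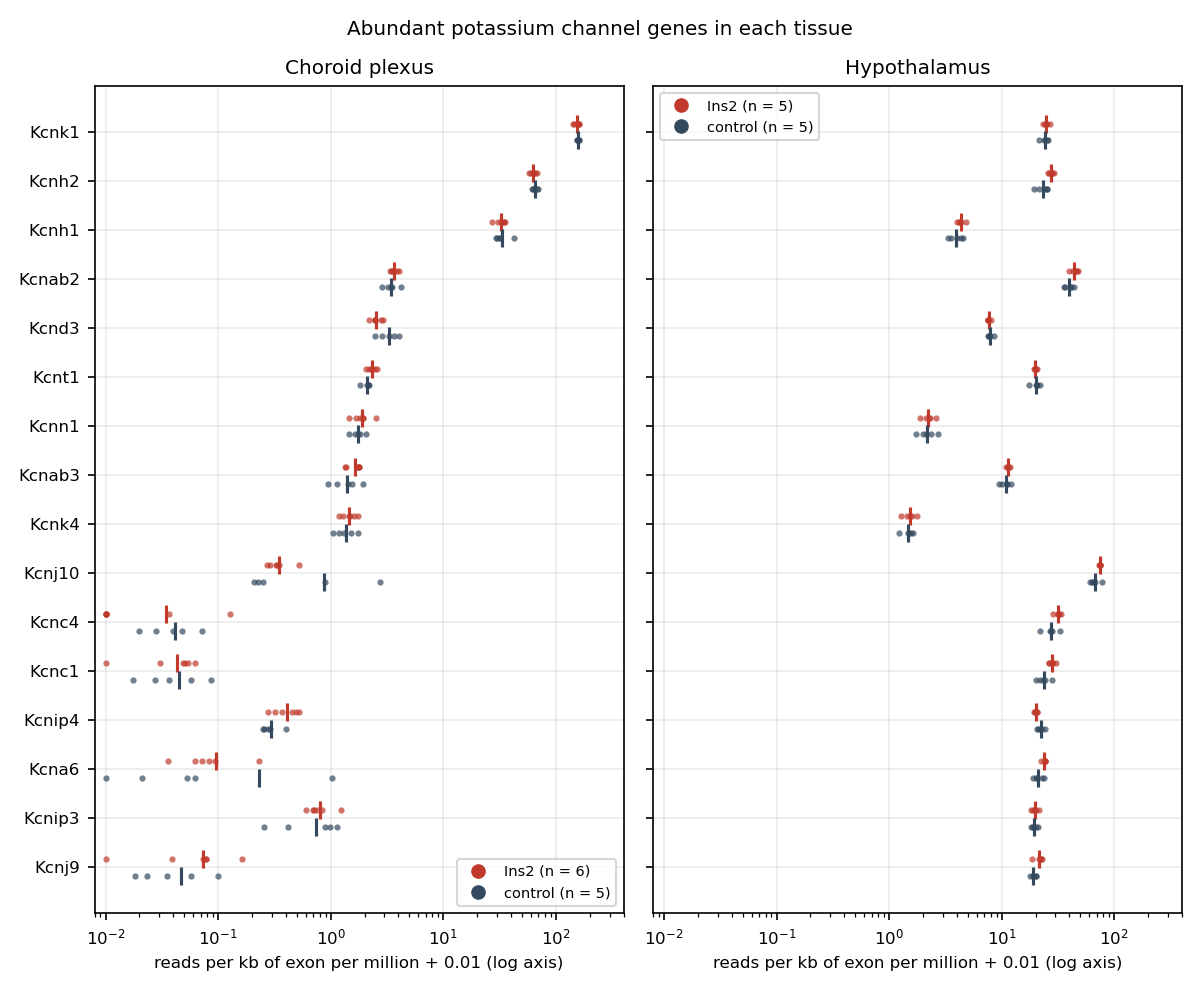
Levels of abundant potassium channel genes of the 2 tissues, in RPKM in every library (points) with group means (bars), on a log axis after adding 0.01. In choroid plexus (left) Kcnk1, Kcnh2 and Kcnh1 stand at 27.1 or more in every library, and in hypothalamus (right) Kcnj10 stands at 60.9 or more, above every other gene drawn, of which Kcnab2 comes closest, at 47.3 or less.

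The classes were weighted differently in the 2 tissues. Two-pore genes made up 56.0 ± 1.61% of the summed level in Ins2 and 55.9 ± 0.951% in control choroid plexus, against 11.6 ± 0.140% in Ins2 and 11.99 ± 0.441% in control hypothalamus (SD; n = 6, 5, 5 and 5). The order of the classes in choroid plexus rests on the division by exon length: without it, voltage-gated genes led with 59.9% and two-pore genes held 33.2% in control libraries. Voltage-gated genes made up 39.0 ± 1.53% and 39.3 ± 1.35% in Ins2 and control choroid plexus, and 42.0 ± 0.615% and 40.9 ± 1.26% in Ins2 and control hypothalamus. The 13 inward rectifiers among the 93 genes held 0.439 ± 0.119% in Ins2 and 0.668 ± 0.512% in control choroid plexus, and 21.5 ± 0.175% in Ins2 and 20.9 ± 0.993% in control hypothalamus. Two-pore, inward rectifier, accessory and calcium- or sodium-activated shares did not overlap between the tissues in any library, while voltage-gated shares did, from 37.2 to 41.5% in choroid plexus and from 39.3 to 42.8% in hypothalamus. Accessory genes held 2.75% and 2.52% in Ins2 and control choroid plexus, and 20.2% and 21.1% in Ins2 and control hypothalamus. Calcium- or sodium-activated genes held 1.81% and 1.59% in Ins2 and control choroid plexus, and 4.52% and 4.85% in Ins2 and control hypothalamus. The 2 tables were scaled separately by the authors, and no test was made between tissues.

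**Figure D2:**
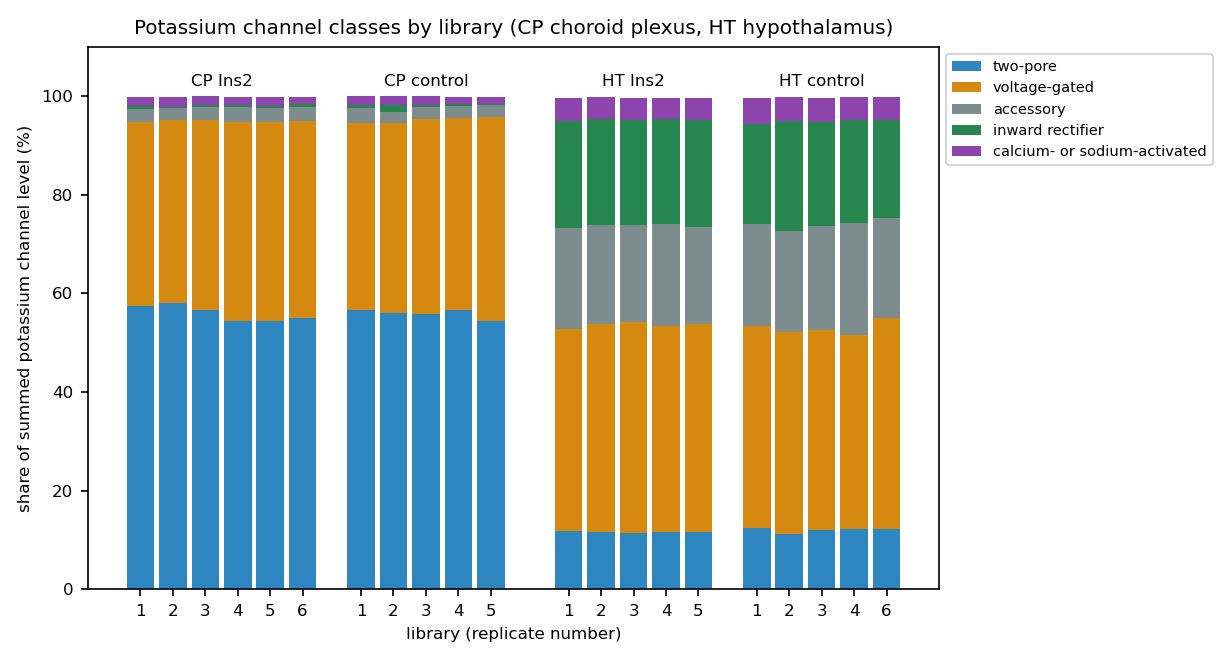
Share of the summed potassium channel level held by each class in each library, in percent, with replicate numbers below the bars; the noncoding transcripts, at most 0.344% in a library, are left out, so bars end just short of 100. The 11 choroid plexus bars are mostly two-pore and voltage-gated, with two-pore shares from 54.3 to 58.0%, and the 10 hypothalamus bars have two-pore shares from 11.3 to 12.4%.

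The voltage-gated share hid different genes. In control choroid plexus, 34.2 ± 1.43% of the summed level came from the EAG, ERG and ELK family, to which Kcnh1 and Kcnh2 belong, 2.37 ± 0.137% from Kv3 and 1.26 ± 0.208% from Kv4. In control hypothalamus the same family held 5.49 ± 0.372% and Kv3 held 12.5 ± 1.22%, followed by Kv1 with 9.34 ± 0.357%, Kv7, the M-current channels, with 4.39 ± 0.225%, and Kv4 with 4.34 ± 0.270%. Kv1 held 0.374 ± 0.346% in control choroid plexus, and 0.222% without control 2. Kv7 held 0.222 ± 0.0822% there. KChIP proteins, the calcium-binding partners of Kv4, held 0.454 ± 0.126% in control choroid plexus and 10.3 ± 0.793% in control hypothalamus. Large conductance channels held 0.0215 ± 0.0169% in control choroid plexus and 0.245 ± 0.0429% in control hypothalamus. Their beta subunits held 0.0259 ± 0.0310% in control choroid plexus, or 0.0126% without control 1, and 0.451% in control hypothalamus.

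Of the 93 genes, 5 were higher in every choroid plexus library than in every hypothalamus library in RPM (reads scaled to the total in genes), 69 were lower in every one, and 19 overlapped. Over all 21341 genes above 0 in some library, 17.3% were higher and 38.7% lower in every choroid plexus library. The 5 were Kcnk1, Kcnh2, Kcnh1, Kcnv2 and Kcnk18. By control means, the level in choroid plexus over that in hypothalamus was 6.54 for Kcnk1, 2.81 for Kcnh2 and 8.42 for Kcnh1. Kcnv2, a silent modifier subunit of Kv2 channels, averaged 0.570 ± 0.0449 in choroid plexus and 0.0429 ± 0.0278 in hypothalamus controls, and Kcnk18, the two-pore channel TRESK, averaged 0.256 ± 0.0914 in choroid plexus and 0.0109 ± 0.0131 in hypothalamus controls. Both were near the lower end of detection in hypothalamus, with at most 13.7 scaled reads of Kcnv2 and 4.60 of Kcnk18 in a library.

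At the other end, several of the leading hypothalamus genes were close to 0 in choroid plexus. Kcnc4 averaged 0.0316 ± 0.0203 and Kcnc1 0.0352 ± 0.0271 in choroid plexus controls, against 27.4 ± 3.84 and 23.6 in hypothalamus controls. Kcnj9 averaged 0.0367 ± 0.0330 in choroid plexus and 19.1 ± 0.894 in hypothalamus controls. No choroid plexus library had more than 12.8 scaled reads of Kcnc4. In choroid plexus 6 of the 93 genes were at 0 in all 11 libraries (Kcna10, Kcnj1, Kcnk15, Kcnk16, Kcnmb2 and Kcnmb4os1), while in hypothalamus only Kcnj1, the kidney channel ROMK, was at 0 in all 10. A count of 0 allows up to 3 reads in a library, which is 0.0827 to 0.116 RPM in choroid plexus and 0.0483 to 0.110 in hypothalamus, for counting error only.

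**Figure D3:**
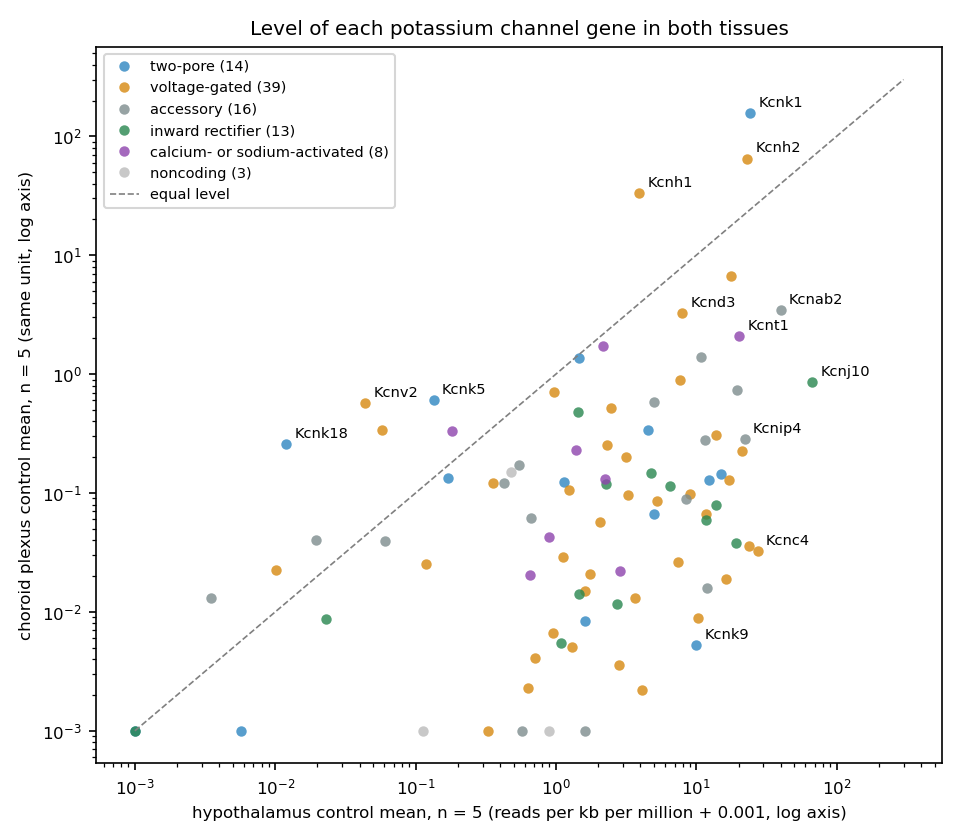
Mean level of each of the 93 genes over 5 control libraries of choroid plexus (vertical) and of hypothalamus (horizontal), in RPKM plus 0.001 on log axes, coloured by class; the dashed line marks equal levels. Kcnk1, Kcnh2 and Kcnh1 lie above the line at high levels, Kcnv2 and Kcnk18 above it at low levels, and Kcnj10 and Kcnc4 far below it.

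Among the genes analysed, 2 Kv1 genes known from choroid plexus and 2 glial inward rectifiers were low in choroid plexus. Kcna1 and Kcna3 encode Kv1.1 and Kv1.3, which are known from rat choroid plexus. Kcna1 had 1.10 to 20.7 scaled reads in the 6 Ins2 libraries, with a median of 9.84, and 13.4, 181, 6.52, 15.8 and 3.24 in controls 1 to 5. Kcna3 had 2.19 to 7.35 in Ins2 and 0.861 to 10.3 in control libraries, under the mean of 10 needed for a test. The one high Kcna1 value was that of control 2, the library with high glial and hypothalamus markers. The 9 neuron markers summed to 334 to 498 scaled reads over the controls, control 2 among them, and to 221 to 497 in Ins2 libraries. Kcnj10 had 42.2 to 80.1 scaled reads in Ins2 libraries and 141, 447, 39.1, 31.7 and 34.5 in controls. The 2 controls with the highest astrocyte marker sums were also highest in Kcnj10. Kcnj16, the partner subunit of Kir4.1, had 0 to 14.1 in Ins2 and 0 to 30.1 in control libraries. In bulk samples fewer cells of a type and less RNA per cell cannot be told apart, and the part of glial and hypothalamic RNA in these values was not tested.

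The next comparison was Ins2 against control within choroid plexus. Of the 93 genes, 43 had a mean of at least 10 scaled reads and were tested, and 0 of them passed an adjusted p of 0.05 in limma (2 of 14533 genes in all, 0.0138%). edgeR and DESeq2 on the recovered reads also called 0, with an adjusted p from DESeq2 for only 7 of the genes, against 0.0138% of all genes called by edgeR and 0.347% by DESeq2. At an unadjusted p under 0.05, 0 genes were higher and 2 lower in Ins2 libraries, against 2.54% higher and 3.67% lower over all genes tested. With equal totals per library that background turned to 3.67% higher and 2.55% lower, and the counts of potassium channel genes were again 0 and 2. By sign, 16 lay above 0 and 27 below, with a median log2 fold change of -0.07, against 48.4% above and 51.6% below and a median of -0.0045 over all genes. Without control 2 the median was 0.0032, with 22 genes above 0 and 21 below.

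The abundant genes were measured closely enough to bound a difference. Kcnk1 had 9186 to 10786 scaled reads in the 6 Ins2 libraries, with a median of 10331, and 10123, 10718, 10621, 10713 and 10379 in the 5 controls. The Ins2 level was 0.96 times that of controls, with a 95% interval of 0.892 to 1.03 (limma, adjusted p = 0.903). For Kcnh2 the ratio was 0.955, with an interval of 0.885 to 1.03 (limma, adjusted p = 0.895), and for Kcnh1 0.966, with an interval of 0.854 to 1.09 (limma, adjusted p = 0.957). Ranges of the 2 groups overlapped for all 3, and for every other tested gene, against 0.234% of all genes with every Ins2 library above every control and 0.392% with every one below.

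The smaller of the 2 unadjusted p-values under 0.05 was that of Kcnd3, a pore-forming subunit of the A-type current. Kcnd3 had 626 to 824 scaled reads in Ins2 libraries, with a median of 695, and 700, 819, 1049, 940 and 1156 in controls. All 6 Ins2 libraries were below the control mean, but the ranges overlapped (log2 fold change -0.37 ± 0.11 SE; limma, adjusted p = 0.515; exact two-sided permutation p = 0.026). It did not pass the adjusted threshold. Among genes with positive values, Kcnn4, the intermediate conductance calcium-activated channel, had 52.1 to 85.7 scaled reads in Ins2 and 35.0 to 67.3 in control libraries, with a log2 fold change of 0.45 (limma, adjusted p = 0.815).

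By class, 20 voltage-gated genes were tested in choroid plexus, 6 above 0 and 14 below, with a median log2 fold change of -0.17. The 3 tested inward rectifiers lay below 0, with a median of -0.09, but without control 2 Kcnj10 was at 0.08 and Kcnj8 at 0.16. Of 8 two-pore genes, 2 lay above 0. The most negative values were those of low genes, Kcnk3 (-1.34, 7.97 ± 8.95 scaled reads in Ins2 and 15.2 ± 7.30 in control libraries), Kcna2 (-1.06) and Kcnk13 (-1.05). Kcna2 and Kcnk13 were again highest in control 2, at 68.0 and 73.2 scaled reads, against at most 14.4 and 24.99 in the other controls. Their adjusted p-values were 0.823 to 0.839 (limma).

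In hypothalamus 80 of the 93 genes were tested and 0 passed an adjusted p of 0.05 in limma (0 of 16363 genes in all, 0%). edgeR called 0 of them. DESeq2 gave an adjusted p for 29 of them and called 1, Kcnh2, against 21 of 6211 genes in all (0.338%). At an unadjusted p under 0.05, 12 genes were higher and 3 lower in Ins2 libraries, against 5.85% higher and 4.08% lower over all genes tested, so that 12 of 80 higher lies above the background share and 3 of 80 lower lies close to it. With equal totals per library the background turned to 4.61% higher and 5.44% lower, and 10 potassium channel genes were higher and 3 lower. By sign, 58 lay above 0 and 22 below, with a median log2 fold change of 0.08, against 50.3% above, 49.7% below and a median of 0.0011 over all genes. These counts are a description: the genes are not independent of each other. The summed level of all 93 genes was 671 ± 11.6 in Ins2 and 631 ± 20.8 in control libraries (SD, n = 5 each), with overlapping ranges of 653 to 681 and 605 to 654.

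The smallest unadjusted p belonged to Kcnh2, the ERG1 channel gene. It had 4418, 4883, 5021, 4830 and 4531 scaled reads in the 5 Ins2 libraries and 3694, 4106, 4342, 3259 and 4321 in the 5 controls. Every Ins2 library lay above every control, which held for 0.77% of all genes tested. The log2 fold change was 0.27 ± 0.07 SE, a ratio of 1.21 with a 95% interval of 1.10 to 1.33 (limma, adjusted p = 0.309; DESeq2, adjusted p = 0.0452), and the exact two-sided permutation p was 0.00794, the smallest that 5 against 5 allows. Kcnmb2, a beta subunit of large conductance channels, and Kcnd1, a Kv4 channel, also had non-overlapping groups. Kcnmb2 had 88.6, 103, 85.6, 79.3 and 78.3 scaled reads in Ins2 libraries, against 59.7, 61.6, 57.8, 76.1 and 61.0 in controls (limma, adjusted p = 0.452). Kcnd1 had 480, 471, 496, 514 and 497 in Ins2 libraries, against 444, 457, 470, 355 and 435 in controls (limma, adjusted p = 0.503). For Kcnd1 the lowest Ins2 and the highest control library were 1 scaled read apart, 471 against 470.

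Kv3 genes encode the fast delayed rectifiers of rapidly firing neurons, and Kcnc1 and Kcnc4 had positive values in hypothalamus. Kcnc1 had 8825, 9670, 10145, 9399 and 8891 scaled reads in Ins2 libraries and 7370, 8121, 7743, 6676 and 9464 in controls. Only control 6 lay within the range of the Ins2 libraries (log2 fold change 0.26 ± 0.07 SE; limma, adjusted p = 0.309), and without it Kcnc1 passed the threshold (log2 fold change 0.33; limma, adjusted p = 0.0327). On leaving out each of the 10 libraries in turn its log2 fold change ran from 0.20 to 0.33, and it passed in none of the other cases. Without control 6, 18 of 16363 genes passed in all, against 0 with all libraries. Kcnc4 had 3731, 4148, 4207, 4402 and 4131 in Ins2 libraries and 3446, 3552, 3624, 2834 and 4269 in controls (log2 fold change 0.23 ± 0.08 SE; limma, adjusted p = 0.362). Control 4 was lowest and control 6 highest of the controls in both genes. Kcnc2, of the same family, had a log2 fold change of 0.04 ± 0.07 SE.

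**Figure D4:**
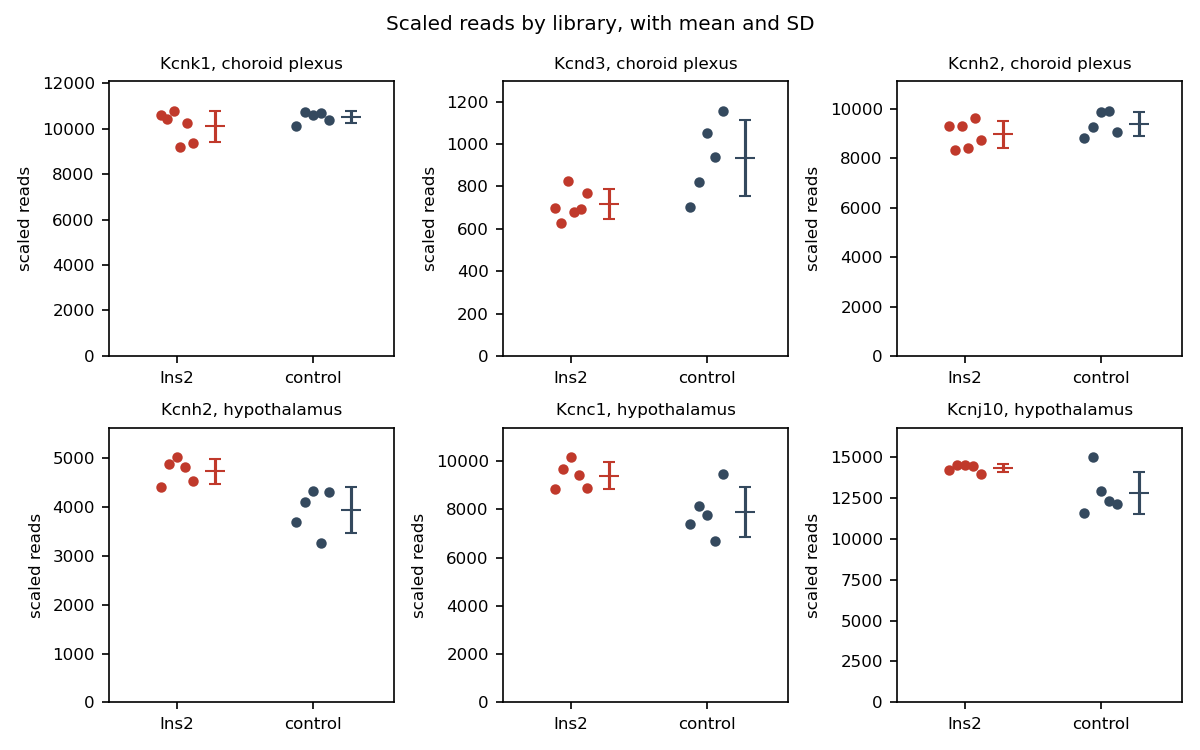
Scaled reads of 3 genes in choroid plexus (top) and 3 in hypothalamus (bottom) in each library, Ins2 left of control, with the group mean and SD beside the points. Choroid plexus Kcnk1, Kcnd3 and Kcnh2 have overlapping groups, hypothalamus Kcnh2 has every Ins2 library at 4418 or more and every control at 4342 or less, Kcnc1 overlaps through control 6, and Kcnj10 overlaps through control 2.

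All 11 tested inward rectifier genes had positive log2 fold changes in hypothalamus, with a median of 0.15, and 3 had an unadjusted p under 0.05. Over all genes tested, 50.3% were positive and 5.85% were higher at an unadjusted p under 0.05 (limma). Kcnj10 had 14219, 14477, 14512, 14431 and 13940 scaled reads in Ins2 libraries and 11595, 14964, 12933, 12295 and 12144 in controls. The highest value was that of a control, replicate 2, and the Ins2 libraries were the more uniform group (log2 fold change 0.17 ± 0.05 SE; limma, adjusted p = 0.350). Kcnj9, a G-protein-gated subunit through which inhibitory transmitters act, averaged 3261 ± 264 in Ins2 and 2892 ± 141 in control libraries (log2 fold change 0.17 ± 0.06 SE; limma, adjusted p = 0.371). Kcnj12, a classical strong rectifier, averaged 737 ± 45.2 in Ins2 and 629 ± 94.6 in control libraries (log2 fold change 0.24 ± 0.10 SE; limma, adjusted p = 0.421). The other G-protein-gated subunits Kcnj3, Kcnj6 and Kcnj5 had log2 fold changes of 0.09, 0.19 and 0.04, and Kcnj8, the pore of vascular ATP-sensitive channels, 0.15, with limma adjusted p-values of 0.594 to 0.909. Kcnj16 was at 0.01. The positive sign did not hold for all 11 in every setting. On leaving out each library in turn, the lowest values were -0.030 for Kcnj16, -0.0059 for Kcnj5 and -0.035 for Kcnj8.

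Other hypothalamus genes with an unadjusted p under 0.05 and positive values were Kcna6 (log2 fold change 0.19), Kcnab2 (0.17) and Kcnf1 (0.16), a modifier subunit of Kv2 channels. Those with negative values were Kcna10, Kcnip4 and Kcnip1. Kcnip4 had 2624, 2560, 2526, 2693 and 2509 scaled reads in Ins2 libraries and 2944, 2664, 2625, 3098 and 2817 in controls, so that all 5 Ins2 libraries lay below the control mean (log2 fold change -0.13 ± 0.05 SE; limma, adjusted p = 0.430). Kcnip1 also had a log2 fold change of -0.13, and the other KChIP genes, Kcnip2 and Kcnip3, had 0.07 and 0.03. Kcna10 was a low gene, with 11.6, 19.6, 10.8, 11.5 and 9.27 scaled reads in Ins2 libraries and 23.1, 27.4, 27.4, 27.9 and 19.5 in controls (log2 fold change -0.97 ± 0.39 SE; limma, adjusted p = 0.421).

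Near-zero differences were found for several abundant or well known hypothalamus genes. The ratio of Ins2 to control was 0.998 for Kcnt1, with a 95% interval of 0.927 to 1.08, and 0.999 for Kcnk9, the TASK3 two-pore channel, with 0.919 to 1.09. The M-current genes Kcnq3 and Kcnq5 had log2 fold changes of -0.04 and -0.05, Kcnd2 had 0.04 and Kcnma1, the large conductance channel, -0.03. Their limma adjusted p-values were 0.815 to 0.953. The ratio for Kcnk1 was 1.04, with an interval of 0.956 to 1.14.

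**Figure D5:**
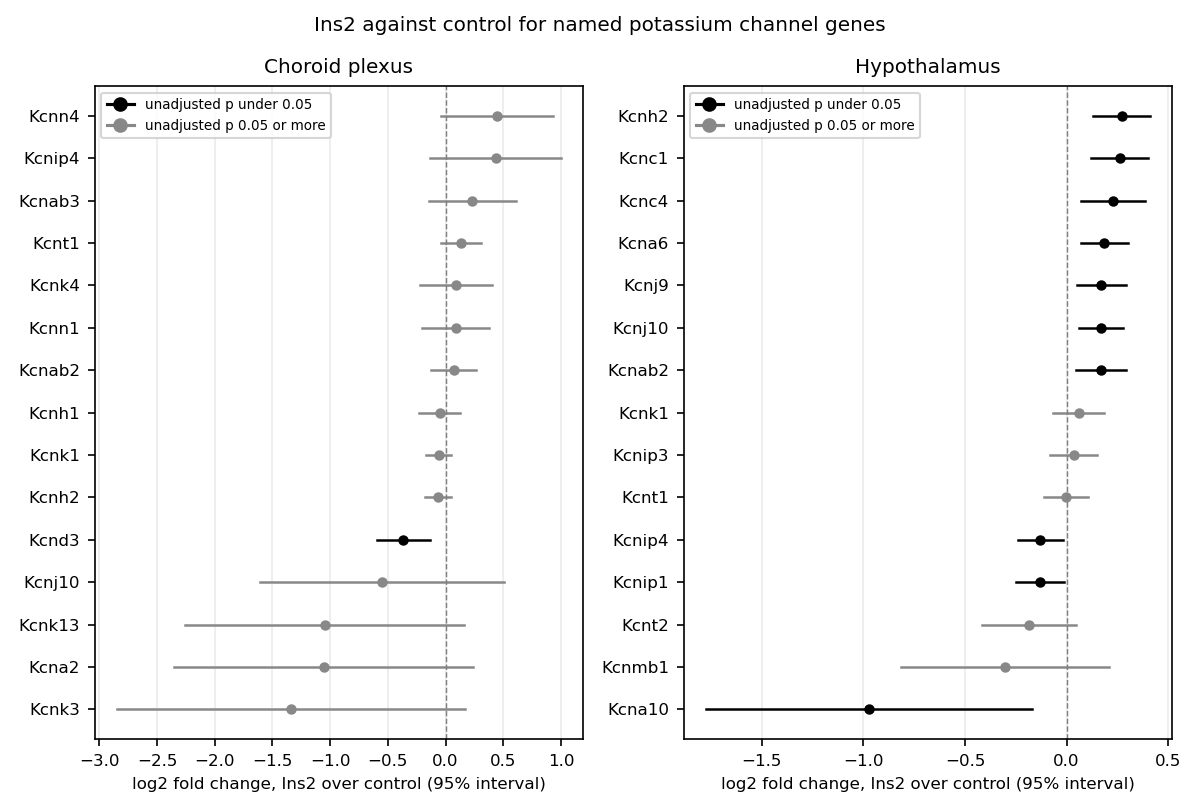
Log2 fold change of Ins2 over control with its 95% interval from limma, for abundant genes and those with the smallest p-values in each direction, in choroid plexus (left) and hypothalamus (right), where black marks an unadjusted p under 0.05. The horizontal scales differ: choroid plexus intervals of low genes such as Kcnk3 are wide, and hypothalamus values other than that of Kcna10 lie between -0.30 and 0.27.

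Markers of the neighbouring thalamus had positive values in the same hypothalamus libraries. Of 8 such genes, 4 were higher in Ins2 libraries at an unadjusted p under 0.05 (limma), as were 3 of 9 neuron markers and 1 of 8 hypothalamus markers. Over all genes tested, 5.85% were higher by the same measure. The median log2 fold change was 0.22 for the thalamus list, 0.05 for the neuron list and -0.12 for the hypothalamus list. None of these markers was lower at that p. The mean log2 level of the thalamus list was 8.94, 9.43, 9.49, 9.18 and 9.33 in Ins2 libraries and 8.80, 9.03, 8.87, 8.94 and 9.25 in controls. The summed level of the list was 13693 to 15850 scaled reads in Ins2 and 13243 to 14724 in control libraries, and none of the 8 was at 0. With that mean as a covariate, 2 potassium channel genes were higher and 0 lower at an unadjusted p under 0.05, against 1.96% higher and 1.28% lower over all genes, so that 2 of 80 lies near the background. By sign, 56 of the 80 were positive and 24 negative with the covariate, against 8482 positive and 7881 negative among all 16363. Their median was 0.052, against 0.0052 over all genes. The median SE of the 80 was 0.122, in place of 0.094 without the covariate. Over all genes it was 0.108, in place of 0.083. With the covariate the log2 fold change was 0.17 for Kcnh2 and 0.11 for Kcnc1. All hypothalamus genes also differed along GC content, with a median log2 fold change of -0.05 in the fifth with the lowest and 0.06 in the fifth with the highest GC, and Kcnh2 was at 0.19 and Kcnc1 at 0.21 once that trend was removed. Of the 80 genes, 13 were then higher and 2 lower at an unadjusted p under 0.05 (limma), against 854 and 658 of 16051 in all. By sign, 60 of the 80 lay above 0, against 7988 of the 16051. The part of thalamic tissue in these values was not tested beyond the covariate.

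Whether the 2 tissues differed in their response was tested on the difference of the log2 fold changes, choroid plexus minus hypothalamus, for the 40 genes tested in both. None of the 40 passed an adjusted p of 0.05, against 15 of 13997 genes in all (0.107%), and 4 had an unadjusted p under 0.05, near the 10.6% of all genes. Kcnh2 had a log2 fold change of -0.07 in choroid plexus and 0.27 in hypothalamus, a difference of -0.34 ± 0.08 SE (limma errors, adjusted p = 0.112). Kcnd3 had -0.37 in choroid plexus and -0.03 in hypothalamus, a difference of -0.33 (adjusted p = 0.304 from the limma errors). Without hypothalamus control 6 the difference for Kcnh2 was -0.37 with an adjusted p of 0.0399 from the limma errors. In that setting 44 of 13997 genes passed in all, against 15 with all libraries. The test treats libraries of the 2 tissues as independent, which need not hold if they came from the same animals.

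Partner genes without a Kcn symbol were read beside the channels, from a list of 27 that encode auxiliary subunits, scaffolds, G-protein subunits, calmodulins and the related HCN pacemaker channels. In choroid plexus 19 were tested in limma and 0 passed an adjusted p of 0.05 or an unadjusted p of 0.05, with 10 above 0, 9 below and a median log2 fold change of 0.01. Over all genes tested there, 2.54% were higher and 3.67% lower at an unadjusted p under 0.05 (limma). In hypothalamus 26 were tested and 0 passed the adjusted threshold, with 17 above 0, 9 below and a median of 0.05. Over all genes tested there, 50.3% lay above 0, and 5.85% were higher and 4.08% lower at an unadjusted p under 0.05 (limma). Of the 26 partner genes, 3 were higher and 1 lower at that p. Those 4 were named after their values were seen: Hcn4, a pacemaker channel (log2 fold change 0.26), Kctd12 (0.13) and Kctd8 (0.27), subunits of GABA-B receptors, and Adam22, a receptor for the synaptic protein LGI1 (-0.09). Abcc8 and Abcc9 encode the sulphonylurea receptors of ATP-sensitive channels. Abcc8 had 10.02 to 21.5 scaled reads in Ins2 and 6.18 to 13.0 in control choroid plexus (log2 fold change 0.73; limma, adjusted p = 0.834), and 1023 ± 86.3 in Ins2 and 974 ± 108 in control hypothalamus (log2 fold change 0.07; limma, adjusted p = 0.784). Abcc9 was at 0.07 in choroid plexus and -0.02 in hypothalamus.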

How the data were processed

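The signal values are gene counts that the authors divided by DESeq2 size factors, per the labels, in 1 table per tissue, scaled on its own. Reads were aligned with HISAT2 and counted with featureCounts against GRCm38 (mm10), per the submitters' processing notes. The labels' protocols give PicoPure RNA and strand-marked poly(A) libraries. Neither tool versions nor strand handling is given in the sources used here.

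Dividing each library by the value of 1 read, found from its low values, gave whole reads, within 0.02, for 100% of values. RPM divides recovered reads by the library's total in genes, and RPKM also by exon length. Exon lengths are unions of GENCODE vM21 exons; coordinates and coding sequence come from the same annotation of GRCm38. All 93 genes had a length, and 40 overlapped an opposite-strand gene.

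The main test was limma 3.58.1 (R 4.3.3) with a mean trend on log2(value + 1), for genes with a mean of at least 10, within a tissue, with Benjamini-Hochberg adjustment over all genes tested at 0.05. On that scale the fold changes of low genes come out too small. Intervals are at 95%. edgeR 4.0.16 and DESeq2 1.42.0 on recovered reads were alternatives. Exact two-sided permutation tests used all 462 (choroid plexus) or 252 (hypothalamus) splits, with smallest possible p-values of 0.00433 and 0.00794. Of these, only the main limma fit was also run on simulated counts. Named genes were the 12 highest per tissue and the highest of each class, the 5 smallest p-values in each direction, a fixed set, the 3 smallest p-values in the tissue difference, and Abcc8 and Abcc9. Some genes the rule names are not reported here. The genes and lists were chosen with earlier results of these data known. No pair of replicates differed by less than sampling noise: the lowest chi-square per gene was 5.48.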

Additional observations from a re-analysis of the deposited data

Results flagged for a closer look

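Among the genes that the naming rule lists and the class shares, values that stand apart from the rest of their group were found in 12 of 108 groups of 4 to 10 libraries, by the gap to the nearest library over the range of the group. Genes named outside that rule were not searched in this way. One of them is Kcnmb2 in hypothalamus, where control 4 had 76.1 scaled reads, against 57.8 to 61.6 in the other controls. Chance gives about 5% of groups. Over all 43 genes tested in choroid plexus, control 2 was highest of the 5 controls by such a gap in 6 genes and control 5 in 2. The named ones of control 2 had 181 scaled reads of Kcna1 (3.24 to 15.8 in the others), 68.0 of Kcna2 (8.63 to 14.4), 447 of Kcnj10 (31.7 to 141) and 73.2 of Kcnk13 (15.4 to 24.99). It is also the library with the highest astrocyte, oligodendrocyte and hypothalamus marker sums, and their part in these values was not tested. Choroid plexus control 5 was highest in Kcnh1, at 9349 against 6394 to 7028, and in Kcnip4, at 42.1 against 25.7 to 29.7, and lowest in Kcnt1, at 515 against 597 to 613. Without it the log2 fold change of Kcnh1 was 0.046 in place of -0.05. Among the 6 Ins2 choroid plexus libraries, replicate 4 was highest in Kcnj10, at 80.1 against 42.2 to 54.0.

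In hypothalamus, Ins2 replicate 2 was highest in Kcna10, at 19.6 against 9.27 to 11.6, Ins2 replicate 1 was lowest in Kcna6, at 4723 against 5094 to 5158, and Ins2 replicate 5 was highest in Kcnj5, at 524 against 432 to 458. Control 4 was highest in Kcnd3, at 2889 against 2573 to 2663.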

How the results depend on the processing

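Over all alternatives, 328 counts, shares and tissue differences kept their direction and side of the threshold (a count within 1.5 times, a share within the spread between libraries) and 33 moved. Of the log2 fold changes of single genes, 1076 kept both, 50 changed sign and 4 passed the adjusted threshold only under an alternative. The count of potassium channel genes past an adjusted p of 0.05 stayed at 0 in choroid plexus in every alternative run, against 1 to 25 genes in all. In hypothalamus it was 1 with DESeq2 and 0 to 1 on leaving out each replicate, against 21 of 6211 and 0 to 18 of 16363 genes in all. Genes with an unadjusted p under 0.05 in choroid plexus numbered 1 higher with no filter on low values or with the astrocyte score as a covariate, and 0 to 1 higher and 1 to 3 lower on leaving out each replicate. Over all genes, 506 of 19598 were higher with no filter and 366 of 14533 with the astrocyte score. Leaving out each replicate gave 315 to 414 higher and 393 to 805 lower of all 14533. With edgeR 5 of 43 were lower, against 541 of 14533 genes in all. DESeq2 covered only 7 of the potassium channel genes, of which 1 was lower and 0 higher. Over all 7203 genes it covered, 542 had an unadjusted p under 0.05, and 150 of those were higher. In hypothalamus leaving out each replicate gave 9 to 14 higher and 1 to 4 lower, and the thalamus score as covariate 2 and 0. Over all 16363 genes, leaving out each replicate gave 681 to 1321 higher and 476 to 895 lower, and the thalamus score 320 and 210. The tissue difference gave 0 to 1 gene past the adjusted threshold and 3 to 7 at an unadjusted p under 0.05 on leaving out each replicate, with 7 without Ins2 replicate 5 or control 5 of choroid plexus. Over all 13997 genes, leaving out each replicate gave 2 to 44 past the adjusted threshold and 1244 to 1753 at an unadjusted p under 0.05.

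With group means removed, same-numbered libraries correlated from -0.15 to 0.14 in choroid plexus and from -0.07 to 0.01 in hypothalamus. Such correlations cannot decide whether same-numbered libraries share an animal or a batch, and the labels state no pairing. The numbers are the replicate numbers of the sample titles. Codes in those titles run differently in hypothalamus, where by code control 6 would match Ins2 replicate 4. With the replicate block, 3 potassium channel genes passed the adjusted threshold in hypothalamus, Kcnc1 and Kcnh2 among them. Over all 16363 genes, 57 passed (0.348%). At an unadjusted p under 0.05, 1 potassium channel gene was lower (limma), against 806 of 16363 in all. The block used the 8 hypothalamus libraries with shared numbers, so control 6 and Ins2 replicate 5 were left out. In the same 8 libraries without the block, 0 passed. In choroid plexus the block called 0 of the 43 tested potassium channel genes, against 2 of 14533 genes in all. Under the block, as without it in those libraries, Kcnj16 was at -0.035, Kcnj5 at -0.042 and Kcnt1 at 0.0060.

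Without division by exon length, voltage-gated genes led in choroid plexus, with 59.9% against 33.2% for two-pore, 3.11% for accessory and 3.04% for calcium- or sodium-activated genes. In hypothalamus the shares were then 49.6% voltage-gated, 17.3% inward rectifier, 16.05% accessory, 9.62% two-pore and 7.37% calcium- or sodium-activated. With Ins2 in place of control libraries, the calcium- or sodium-activated share was 1.81% in choroid plexus and 4.52% in hypothalamus.

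The changes of sign were as follows. In choroid plexus, leaving out each replicate gave -0.33 to 0.26 for Abcc9, -0.091 to 0.046 for Kcnh1, -0.87 to 0.078 for Kcnj10, -0.56 to 0.21 for Kcnj8, -0.0087 to 0.18 for Kcnk4 and -0.00048 to 0.16 for Kcnn1. With the astrocyte score as covariate, Kcna1 was at 0.048, Kcnj10 at 0.28 and Kcnj8 at 0.26. Without controls 2 and 5 together, Kcnab3 was at -0.029, Kcnh1 at 0.067 and Abcc9 at -0.45, and Abcc9 was at -0.0030 with array weights. In hypothalamus, leaving out each replicate gave -0.059 to 0.016 for Abcc9, -0.0028 to 0.061 for Kcnip3, -0.030 to 0.033 for Kcnj16, -0.0059 to 0.088 for Kcnj5, -0.035 to 0.32 for Kcnj8, -0.099 to 0.032 for Kcnma1, -0.12 to 0.0076 for Kcnq5 and -0.054 to 0.031 for Kcnt1. With the thalamus score, Abcc8 was at -0.013, Kcnma1 at 0.037 and Kcnt1 at 0.032. Abcc9 was at 0.0057 with array weights and 0.0030 with the GC trend removed, where Kcnma1 was at 0.0018, and Kcnj16 was at -0.0044 with equal totals per library. The causes were not tested. At 25950069 reads in the smallest library, genes under a mean of 10 scaled reads were not tested, so the tests cover 43 of the 93 genes in choroid plexus and 80 in hypothalamus.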
